A study of Homo sapiens with 39 samples.

Results

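AZD9496, one of 6 estrogen receptor degraders given to HCC1428-LTED cells, was compared with the DMSO vehicle, with its doses pooled. The comparison took the 6 AZD9496 libraries, 3 at 30 nM and 3 at 300 nM, and the 3 untreated DMSO libraries, 9 of the 39 libraries in the series. HCC1428-LTED is a human breast cancer cell line kept for a long time without estrogen, so AZD9496 and DMSO cells alike were estrogen-deprived. All cells grew in IMEM with 5% charcoal-stripped serum, and ligand exposure lasted 24 h. The other 30 libraries came from fulvestrant, SAR439859, GDC-0810, GDC-SAR and AZD-SAR, each at the same pair of doses with 3 libraries per dose. The design text speaks of duplicates although 3 libraries per group are labelled, and all 3 were used. The labels do not say whether the 3 libraries of a group came from separate cultures, so p-values measure the spread between libraries, which may be technical. One line was used, so nothing here shows how other breast cancer lines respond.

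The estrogen receptor, encoded by ESR1, is a transcription factor that estrogen switches on. In luminal breast cancer cells it induces a set of direct targets, among them PGR, GREB1 and TFF1, and drives cells into the cycle through genes such as MYC and CCND1. Degraders bind the receptor, block its activity and lower the amount of receptor protein, which RNA sequencing does not measure. Cells deprived of estrogen for a long time often keep some receptor activity, and a degrader acts on that remainder.

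Expression was read as TPM, transcripts per 1000000, a share of each library's RNA corrected for transcript length. TPM holds no read counts, so the depth behind each value is unknown. The test covered 14404 of 46706 listed genes, those averaging 1 TPM or more across the series, and a gene was called at a limma adjusted p below 0.05. Log2 differences are on the log2(TPM + 1) scale, which understates changes of low genes. Each comparison was run on TPM as deposited and again after median-of-ratios scaling, which divides each library by 1 factor so that the typical gene is level across libraries. The factors were 0.977 to 1.154 in AZD9496 libraries and 0.944 to 0.980 in DMSO libraries.

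Libraries differed in ways that touch this comparison. RN7SL1, the RNA of the signal recognition particle, took 18000 to 72770 TPM in AZD9496 libraries and 106500 to 114600 TPM in DMSO libraries. Small structural RNAs together took 51780 to 142000 TPM in AZD9496 libraries and 179900 to 205100 TPM in DMSO libraries. Each TPM value is a share of the whole library, these RNAs included, so their share affects the TPM of all other genes. Replicate 1 at each AZD9496 dose listed the most genes above 0, 26756 at 30 nM and 26440 at 300 nM, against 21570 to 24526 in the other 4 AZD9496 libraries and 20708 to 22786 in DMSO libraries. One DMSO library carries the same index as an AZD9496 300 nM library, so those 2 were probably sequenced apart, but the labels name no pool. Whether vehicle and treated libraries differed as a batch cannot be told apart from treatment. Luminal epithelial markers summed to 8911 to 14200 TPM in AZD9496 libraries and 7812 to 8707 TPM in DMSO libraries, with ESR1, GATA3, FOXA1 and KRT19 abundant in all 9. Basal and mesenchymal markers summed to 61.9 to 74.5 TPM with AZD9496 and 47.7 to 61.9 TPM with DMSO, with 2 of 14 abundant enough to test. KRT5, KRT14 and TP63 were below 1 TPM in all 9 libraries, and VIM reached 1.12 TPM with AZD9496. Other members thus made up most of these sums. Stromal, endothelial and immune markers summed to 19.5 to 24.7 TPM with AZD9496 and 15 to 18.6 TPM with DMSO, with PTPRC at 0 in 8 of these 9 libraries. The fibroblast marker COL1A1 was not near 0, at 9.49 to 10.9 TPM with AZD9496 and 7.32 to 9.21 TPM with DMSO.

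With AZD9496, the receptor targets PGR, GREB1 and TFF1, 15 of 44 estrogen-induced genes in all, and 31 of 50 DNA replication genes were lower than with DMSO. Of 15 genes that estrogen normally represses, 10 were higher, while ESR1 RNA itself was not called. The gene lists here and below were chosen with earlier results of these data known, so their counts are description only. As deposited, 1791 genes were called, 12.4% of those tested, with 1341 higher (9.31%) and 450 lower (3.12%) than in DMSO. After scaling, 1658 genes were called (11.5%), with 729 higher (5.06%) and 929 lower (6.45%). The share of calls that were higher was thus 74.9% as deposited and 44% after scaling. With TPM rescaled to protein-coding genes, an alternative added after the data were seen, 712 genes were higher and 718 lower. Leaving out DMSO replicate 1, 2 or 3 left 1185, 878 or 1021 calls as deposited. The 2 analyses shared 1179 calls, none with opposite signs. All 729 scaled higher calls were also called as deposited, and all 450 deposited lower calls were also called after scaling. The median log2 difference of all tested genes was 0.145 as deposited and 0.01 after scaling, a shift of 0.135, so a small positive difference as deposited is near the typical gene. A gene is described below as rising or falling where it was called in both analyses (5.06% of tested genes rose and 3.12% fell), and exceptions are named. Among these genes, 131 rose and 61 fell by more than 2-fold on the log2(TPM + 1) scale. The 6 AZD9496 and 3 DMSO libraries did not overlap for 693 of the 729 that rose and 413 of the 450 that fell. The calls were made from these same libraries, so this separation is largely set by the calls and is no separate support. The share without overlap over all tested genes is not given here.

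**Figure D1:**
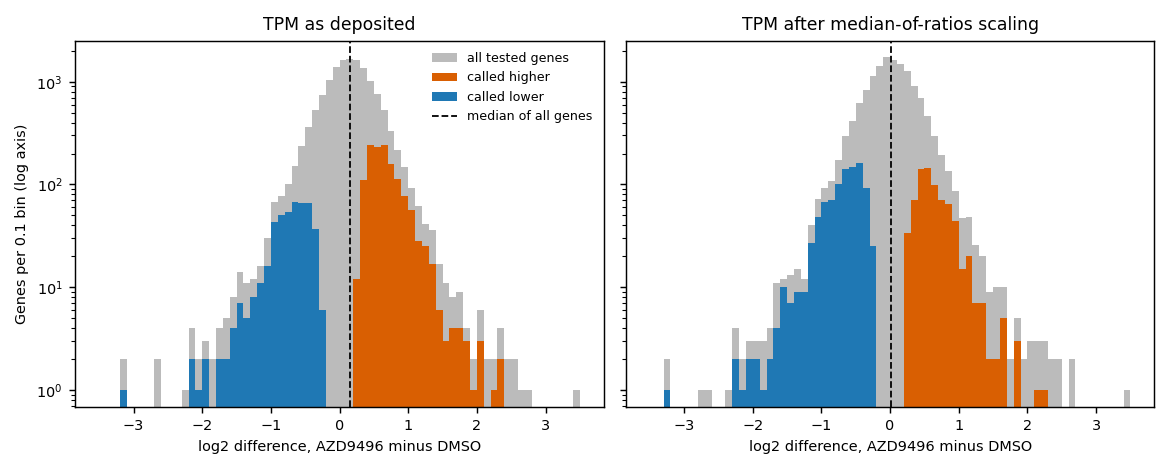
Histograms of the log2 difference, AZD9496 minus DMSO, for the 14404 tested genes in bins of 0.1 on a logarithmic count axis, as deposited (left) and after median-of-ratios scaling (right), with values beyond 3.5 placed in the outermost bins. Called genes are coloured, and the dashed median sits at 0.145 as deposited and 0.01 after scaling, where the called genes move from mostly higher to 729 higher and 929 lower.

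ESR1 encodes the receptor that AZD9496 targets (GRCh38 chr6:151656691-152129619, plus strand). Its level was 422, 510 and 492 TPM at 30 nM and 410, 568 and 515 TPM at 300 nM, against 409, 459 and 439 TPM in DMSO libraries. The groups overlapped, and the log2 difference was 0.15 (SE 0.137, 95% interval -0.13 to 0.43, limma adjusted p = 0.53), or -0.01 after scaling. The measurement concerns receptor RNA and does not bear on receptor protein.

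PGR, the progesterone receptor gene and a standard readout of estrogen receptor activity (chr11:101029624-101130524, minus strand), had 7.19, 5.95 and 5.98 TPM at 30 nM and 6.96, 9.27 and 7.66 TPM at 300 nM. DMSO libraries had 31.3, 47.0 and 29.2 TPM. Every AZD9496 library lay below every DMSO library, and PGR fell by 2.15 on the log2 scale (SE 0.177, limma adjusted p = 2.76e-09). GREB1, an estrogen-induced cofactor of the receptor, had 3.41 to 6.40 TPM in AZD9496 libraries and 17.9 to 20.7 TPM in DMSO libraries, and fell by 1.78 (SE 0.222). TFF1, which encodes a secreted trefoil peptide, had 1060 to 1230 TPM with AZD9496 and 2260, 2990 and 3470 TPM with DMSO, and fell by 1.32 (SE 0.17). TFF1 thus remained among the abundant mRNAs under AZD9496. In bulk RNA, fewer cells expressing a gene and less of its RNA per cell cannot be told apart.

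The largest fall among genes of at least 5 TPM without overlap was that of IL20, a cytokine of the interleukin 10 family (chr1:206865354-206869223, plus strand). It had 6.22, 8.77 and 8.10 TPM at 30 nM and 7.23, 6.25 and 5.65 TPM at 300 nM, against 66.6, 68.5 and 67.4 TPM in DMSO libraries. The log2 difference was -3.11 (SE 0.278, limma adjusted p = 8.24e-09), and both groups were tight. EGR3, an early growth response transcription factor induced by estrogen, averaged 4.99 ± 0.736 TPM with AZD9496 (SD, n = 6) and 25.7 ± 4.9 TPM with DMSO (SD, n = 3), and fell by 2.15. PTGES, the prostaglandin E synthase, had 17.3 to 21.5 TPM with AZD9496 and 65.8 to 97.7 TPM with DMSO, and fell by 1.94 (SE 0.15). MYC, the growth-promoting transcription factor, had 25.2 to 34.0 TPM with AZD9496 and 63.8 to 68.6 TPM with DMSO, and fell by 1.11 (SE 0.117).

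**Figure D2:**
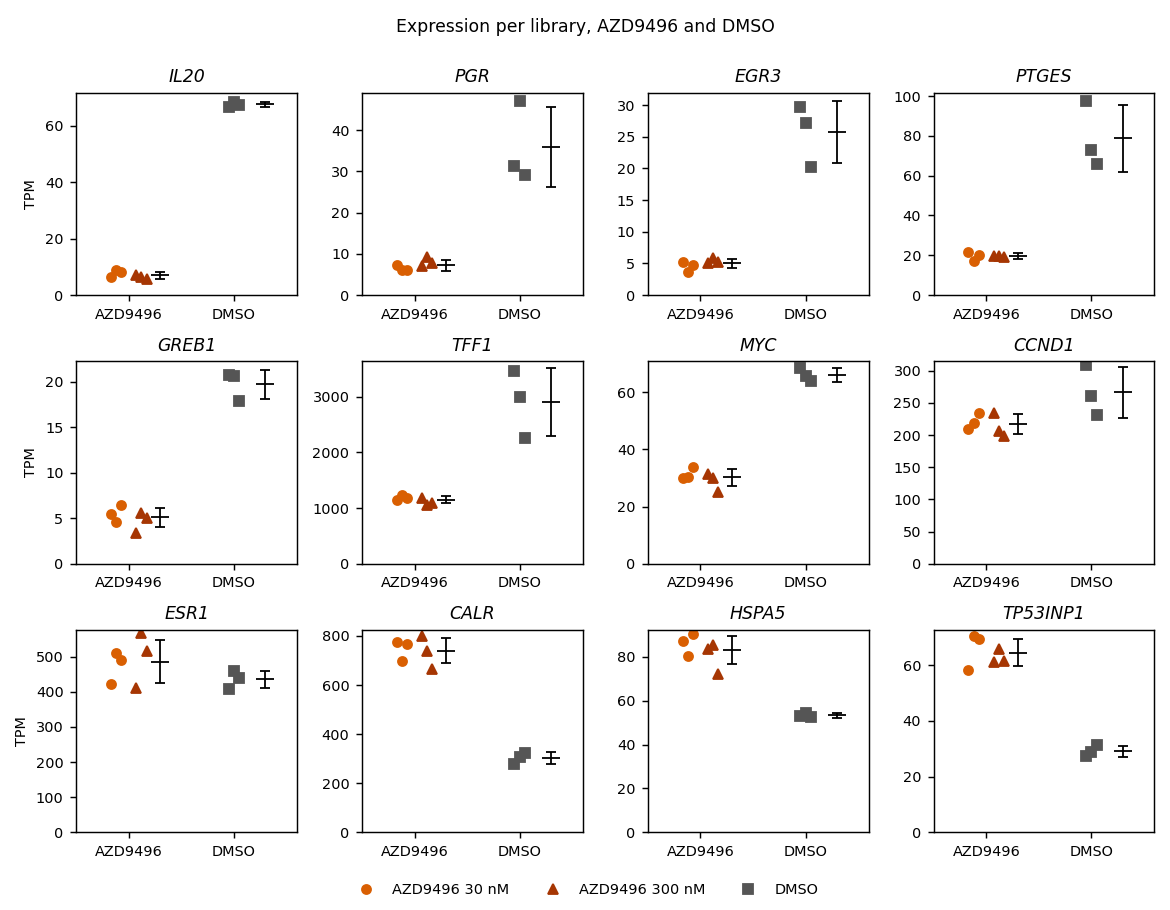
TPM of 12 genes in each AZD9496 library (circles 30 nM, triangles 300 nM) and each DMSO library (squares), on linear axes from 0, with the mean and SD of each group beside the points. AZD9496 libraries sit below all DMSO libraries for IL20, PGR, EGR3, PTGES, GREB1, TFF1 and MYC and above them for CALR, HSPA5 and TP53INP1, whereas ESR1 and CCND1 overlap between the groups.

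Of 50 listed estrogen-induced genes, 44 were abundant enough to test, and AGR3, AREG, CXCL12, FOS, PDZK1 and WISP2 were not. As deposited, 15 fell and 1 rose, and after scaling 21 were lower and none higher. Their median log2 difference was -0.31 as deposited and -0.46 after scaling, beside 0.145 and 0.01 for all tested genes. ELOVL2, a fatty acid elongase, averaged 13.9 ± 2.04 TPM with AZD9496 and 38.7 ± 3.82 TPM with DMSO. PKIB, an inhibitor of protein kinase A, averaged 4.86 ± 0.752 TPM with AZD9496 and 13.3 ± 1.52 TPM with DMSO. HSPB8, a small heat shock protein, averaged 52.0 ± 3.9 TPM with AZD9496 and 100.4 ± 8.09 TPM with DMSO. SGK3, a serum and glucocorticoid regulated kinase, averaged 6.73 ± 0.932 TPM with AZD9496 and 13.5 ± 1.31 TPM with DMSO. PKIB, HSPB8 and SGK3 were chosen after their values were seen, and all 4 genes fell in both analyses.

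The rest of the estrogen-induced list did not move as a block. The single rise was AGR2, a protein disulfide isomerase of secretory cells, at 63.7 to 78.1 TPM with AZD9496 and 24.6, 45.6 and 48.4 TPM with DMSO. Its call was lost after scaling (log2 difference 0.70, limma adjusted p = 0.0987) and without DMSO replicate 1 (0.56, adjusted p = 0.238). CCND1, the G1 cyclin, had 199 to 235 TPM with AZD9496 and 231, 260 and 309 TPM with DMSO. It was not called as deposited (-0.29, SE 0.134, limma adjusted p = 0.166) and was lower after scaling (-0.45, adjusted p = 0.00624). SLC7A5, a large neutral amino acid transporter, had 79.7 to 102 TPM with AZD9496 and 84.5 to 96.8 TPM with DMSO, and RARA, a retinoic acid receptor, had 33.9 to 38.2 TPM with AZD9496 and 37.1 to 38.8 TPM with DMSO. Both groups overlapped for these genes and neither analysis called them. They were named after their values were seen.

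Of 15 listed genes that estrogen represses, 10 rose and none fell as deposited. The scaled analysis gave the same counts apart from KLF6, a zinc finger transcription factor, which was lower there (-0.29 as deposited with limma adjusted p = 0.22, scaled adjusted p = 0.0479). TP53INP1, a stress-induced regulator of autophagy and cell death, had 58.4, 70.4 and 69.4 TPM at 30 nM and 61.2, 65.9 and 61.5 TPM at 300 nM, against 27.3, 28.9 and 31.2 TPM in DMSO libraries. BLNK, an adaptor of B cell receptor signalling, averaged 22.5 ± 2.98 TPM with AZD9496 and 10.1 ± 1.07 TPM with DMSO. ERBB2, the HER2 receptor gene, had 47.8 to 55.7 TPM with AZD9496 and 22.5 to 29.8 TPM with DMSO. CCNG2, an atypical cyclin linked to cell cycle exit, averaged 21.4 ± 2.78 TPM with AZD9496 and 11.5 ± 1.4 TPM with DMSO. The log2 differences of these 4 genes ran from 0.83 for CCNG2 to 1.12 for TP53INP1, and no AZD9496 library overlapped a DMSO library for any of them. Among receptor cofactors, 3 of 19 rose in both analyses, beside 5.06% of all tested genes. NCOA3, a coactivator of nuclear receptors, averaged 25.0 ± 2.53 TPM with AZD9496 and 14.5 ± 0.775 TPM with DMSO, and EP300, a histone acetyltransferase, averaged 35.2 ± 2.15 TPM with AZD9496 and 22.8 ± 0.84 TPM with DMSO.

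DNA replication genes fell broadly. All 50 were tested, and 31 fell and none rose as deposited, while 40 were lower after scaling. Their median log2 difference was -0.68 as deposited and -0.82 after scaling. MCM6, a subunit of the replicative helicase, had 12.2, 12.1 and 12.4 TPM at 30 nM and 11.3, 12 and 9.76 TPM at 300 nM, against 25.9, 24.0 and 23.2 TPM in DMSO libraries. MCM7, of the same helicase, had 31.8 to 38.9 TPM with AZD9496 and 68.1 to 74.3 TPM with DMSO. Both fell by about the same amount, by 1.01 (SE 0.121) for MCM6 and by 1.0 (SE 0.162) for MCM7, with groups well apart. CCNE2, a cyclin that starts S phase, had 1.56 to 4.24 TPM with AZD9496 and 8.15 to 10.7 TPM with DMSO, and fell by 1.44. RFC5, a subunit of the clamp loader, averaged 23.6 ± 5.15 TPM with AZD9496 and 53.4 ± 7.03 TPM with DMSO, and its call was lost without DMSO replicate 3 (limma adjusted p = 0.052). POLE2, a subunit of DNA polymerase epsilon, averaged 6.86 ± 1.42 TPM with AZD9496 and 15 ± 2.31 TPM with DMSO. PCNA, the sliding clamp, had 19.7 to 24.7 TPM with AZD9496 and 37.6 to 44.1 TPM with DMSO. MCM6, MCM7 and PCNA were chosen after their values were seen. GINS4, of the helicase complex, was spread widely, at 3.35 to 11.1 TPM with AZD9496 and 14.0 to 20.3 TPM with DMSO, and was called only after scaling (limma adjusted p = 0.0549 as deposited and 0.0309 scaled).

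Replication genes are known targets of E2F transcription factors, and their promoters are shown because these genes moved together. Windows of 250 bases before the RefSeq gene start (GRCh38.p14) were searched on both strands for TTTGGCGC, TTTCGCGC and TTTCCCGC. At least one of these was present in 16 of the 42 replication promoters in the table (38.1%), in 353 of the 9094 promoters of tested genes (3.88%) and in 649 of all 27305 promoters (2.38%). It was present in 26 of 319 promoters of genes that fell (8.15%) and in 13 of 462 promoters of genes that rose (2.81%). The genes that fell include replication genes, so their share is not separate from that of the replication promoters. No share without the replication genes was computed. In the MCM6 and MCM7 windows below, read 5′ to 3′ on the strand of the gene, capitals mark these matches. The 4 matches of MCM6 form 2 overlapping pairs on opposite strands, and MCM7 has 2 separate ones. The MCM7 window lies within the longer span that GENCODE gives this gene. The same windows were searched for an estrogen response element, GGTCA and TGACC separated by 3 bases of any kind. It was found in 0 of 35 estrogen-induced promoters, 0 of 319 promoters of genes that fell and 1 of 9094 promoters of tested genes. A xenobiotic response element, TTGCGTG, was in 0 of 8 aryl hydrocarbon receptor gene promoters and 122 of 9094 (1.34%). Sites outside these windows were not searched. A match describes letters in the window and does not show binding.
MCM6, chr2:135876444-135876693, minus strand: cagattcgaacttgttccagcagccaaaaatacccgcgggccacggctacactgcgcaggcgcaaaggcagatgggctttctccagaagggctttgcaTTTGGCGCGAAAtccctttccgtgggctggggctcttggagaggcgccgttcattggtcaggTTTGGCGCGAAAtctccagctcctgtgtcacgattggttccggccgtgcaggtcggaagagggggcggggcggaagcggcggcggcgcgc
MCM7, chr7:100101398-100101647, minus strand: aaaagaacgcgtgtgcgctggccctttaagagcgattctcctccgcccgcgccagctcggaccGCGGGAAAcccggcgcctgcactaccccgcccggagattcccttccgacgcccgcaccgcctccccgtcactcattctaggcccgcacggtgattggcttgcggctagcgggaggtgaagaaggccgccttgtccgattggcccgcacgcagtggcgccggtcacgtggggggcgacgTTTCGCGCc

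Replication-dependent histone genes, which are transcribed in S phase, fell in the same direction. Of 21 tested, 15 fell and none rose as deposited, and 17 were lower after scaling, with medians of -0.67 and -0.83. HIST1H4B averaged 50.9 ± 6.02 TPM with AZD9496 and 159.5 ± 19.3 TPM with DMSO, and HIST2H2AC averaged 201.1 ± 16.1 TPM with AZD9496 and 486 ± 39.3 TPM with DMSO. Histone genes share near-identical copies, so reads may be split between them and single-gene values are uncertain. Mitotic genes moved less. Of 36, 7 fell and none rose as deposited, 11 were lower after scaling, and the median was -0.18. CDK1, the mitotic kinase, had 106 to 199 TPM with AZD9496 and 286 to 366 TPM with DMSO, and fell by 1.12, a call lost without DMSO replicate 2 (limma adjusted p = 0.0715) or replicate 3 (0.0527). SPC25, a kinetochore protein, had 16.0 to 19.5 TPM with AZD9496 and 31.0 to 40.1 TPM with DMSO, and fell by 0.88. MKI67, the proliferation marker, had 42.8 to 59.3 TPM with AZD9496 and 53.3 to 59.7 TPM with DMSO, and was not called in either analysis (-0.14, SE 0.136, limma adjusted p = 0.569). The replication and histone genes fell while the small structural RNA share was also lower in the same libraries, and the part of that share in these results was not tested.

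Chaperones of the endoplasmic reticulum went the other way. Of 24 tested genes, 8 were higher and none lower as deposited, and 5 of these were also called after scaling, where DNAJB9 was lower. Over all tested genes, 9.31% were higher as deposited and 5.06% in both analyses. The median of the chaperone genes was 0.30 as deposited and 0.14 after scaling. CALR, the calcium-binding chaperone calreticulin (chr19:12938578-12944489, plus strand), had 774, 698 and 766 TPM at 30 nM and 798, 740 and 665 TPM at 300 nM, against 278, 308 and 322 TPM in DMSO libraries. It rose by 1.29 on the log2 scale (SE 0.115, limma adjusted p = 8.24e-09) with groups far apart. HSPA5, the chaperone BiP, had 71.9 to 90.2 TPM with AZD9496 and 52.5 to 54.4 TPM with DMSO, and rose by 0.63 (SE 0.076). EDEM1, which directs misfolded glycoproteins to degradation, averaged 18.5 ± 2.09 TPM with AZD9496 and 10.9 ± 0.682 TPM with DMSO. P4HB and PPIB, a protein disulfide isomerase and a prolyl isomerase, both rose and were named after their values were seen. PPIB lost its call without DMSO replicate 2 (limma adjusted p = 0.0707). DNAJB9, a cochaperone of BiP, had 17.0 to 23.5 TPM with AZD9496 and 24.1 to 29.6 TPM with DMSO (limma adjusted p = 0.0645 as deposited and 0.0201 scaled). None of 13 tested integrated stress response genes was called as deposited and 1 was lower after scaling.

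The endoplasmic reticulum stress element, CCAAT and CCACG separated by 9 bases of any kind, is a known binding sequence of factors that induce these chaperones. It was found in the 250 bases before the start of 5 of 24 chaperone genes (20.8%), namely CALR, CANX, CRELD2, HSP90B1 and HSPA5, in 13 of the 9094 promoters of tested genes (0.143%) and in 22 of all 27305 promoters (0.0806%). Its first bases are themselves the CCAAT box, which 33% of all promoters hold. Among genes that rose, 2 of 462 promoters held the element, and none of 319 among genes that fell. Capitals mark the element in the CALR window, where it lies on the strand opposite to the gene, and in the HSPA5 window, where it lies on the same strand. Of the 5 genes, CALR and HSPA5 rose in both analyses, and the other 3 were not called in either.
CALR, chr19:12938359-12938608, plus strand: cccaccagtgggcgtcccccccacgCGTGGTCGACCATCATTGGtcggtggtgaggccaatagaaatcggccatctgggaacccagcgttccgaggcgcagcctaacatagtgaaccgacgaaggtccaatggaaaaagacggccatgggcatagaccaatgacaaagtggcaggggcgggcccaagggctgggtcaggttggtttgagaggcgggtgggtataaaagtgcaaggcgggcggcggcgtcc
HSPA5, chr9:125241344-125241593, minus strand: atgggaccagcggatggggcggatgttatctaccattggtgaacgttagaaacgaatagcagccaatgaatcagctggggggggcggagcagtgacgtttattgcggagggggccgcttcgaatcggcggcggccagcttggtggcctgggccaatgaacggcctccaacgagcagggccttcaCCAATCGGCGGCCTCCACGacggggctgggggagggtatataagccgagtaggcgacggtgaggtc

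**Figure D3:**
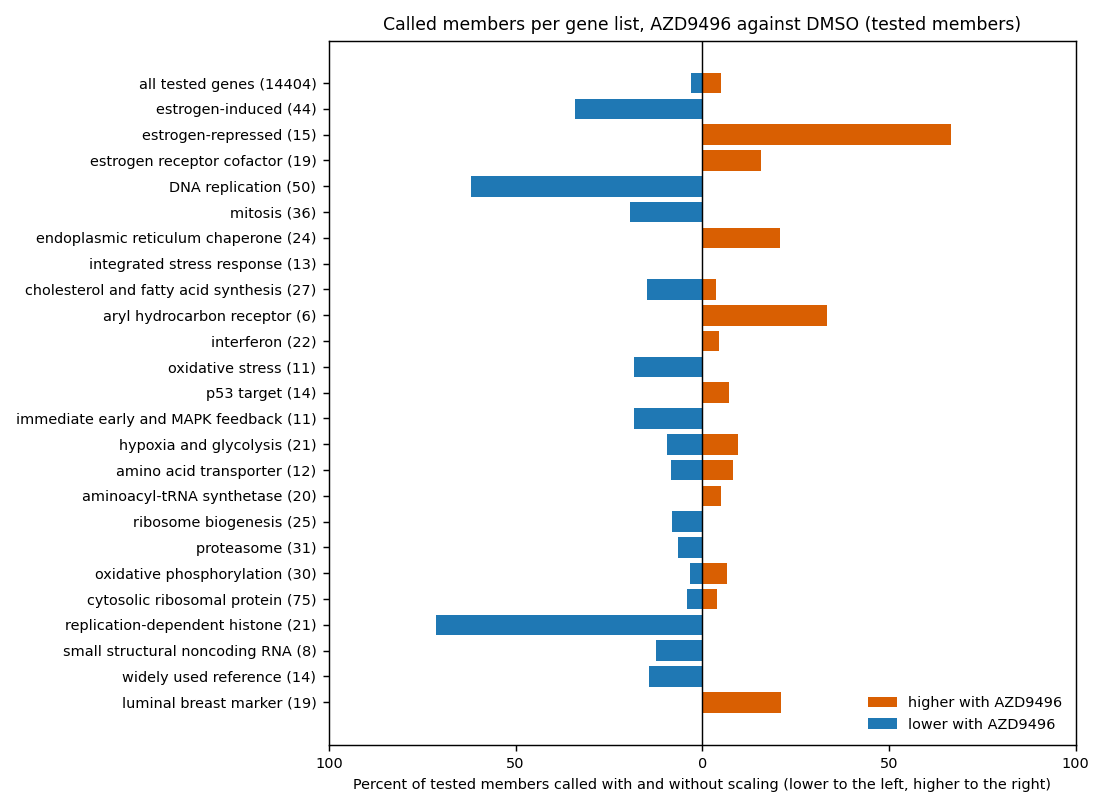
Percent of tested members of each gene list, and of all tested genes in the top row, that were called in both analyses for AZD9496 against DMSO, higher to the right and lower to the left, with the number of tested members in brackets. DNA replication (31 of 50), histone (15 of 21) and estrogen-induced genes (15 of 44) extend to the left and estrogen-repressed genes (10 of 15) to the right, beside 5.06% higher and 3.12% lower over all tested genes.

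Lipid synthesis and xenobiotic genes changed in part. The small list counts here and in the next paragraph stand beside all tested genes, of which 5.06% rose and 3.12% fell. Of 27 cholesterol and fatty acid synthesis genes, 4 fell and 1 rose. EBP, a sterol isomerase, had 69.4 to 73.8 TPM with AZD9496 and 101, 117 and 209 TPM with DMSO, and fell by 0.91, or by 0.59 without DMSO replicate 1. IDI1, an isomerase early in the pathway, averaged 116 ± 11 TPM with AZD9496 and 173 ± 3.5 TPM with DMSO. Of 6 tested aryl hydrocarbon receptor genes, 2 rose, the xenobiotic-metabolizing cytochromes CYP1A1 and CYP1B1. CYP1A1 had 2.17 to 5.02 TPM with AZD9496 and 0.229 to 0.423 TPM with DMSO, and CYP1B1 had 9.04 to 14.0 TPM with AZD9496 and 5.14 to 7.24 TPM with DMSO. Among hypoxia and glycolysis genes, 2 of 21 rose and 2 fell. NDRG1, a hypoxia-induced growth regulator, had 152 to 187 TPM with AZD9496 and 96.6 to 116 TPM with DMSO, whereas LDHA, lactate dehydrogenase A, had 914 to 1150 TPM with AZD9496 and 1540 to 1700 TPM with DMSO. Of 12 tested amino acid transporters, 1 rose and 1 fell in both analyses, too few to describe the group. The one that rose, SLC7A8, had 591 to 738 TPM with AZD9496 and 382 to 419 TPM with DMSO, and rose by 0.66.

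JUN, a component of the AP-1 transcription factor, was uniform within each group, at 4.0 to 4.53 TPM with AZD9496 and 9.59 to 11.3 TPM with DMSO, and fell by 1.08 (SE 0.122). With EGR3 it made up the 2 of 11 tested immediate early and MAPK feedback genes that fell. NPM1, a nucleolar protein of ribosome assembly, had 3090 to 3690 TPM with AZD9496 and 4800 to 4960 TPM with DMSO, and was 1 of 2 among 25 ribosome biogenesis genes that fell. Interferon genes were called higher in 3 of 22 cases as deposited and 1 of 22 after scaling, beside 9.31% and 5.06% of all tested genes. IRF9, an interferon signalling factor, alone kept its call after scaling (limma adjusted p = 0.00950 as deposited and 0.0273 scaled). It had 34.8 to 55.4 TPM with AZD9496 and 18.8 to 32.8 TPM with DMSO, and lost its call without DMSO replicate 1 (adjusted p = 0.101). The reference genes HPRT1 and TFRC fell in both analyses, HPRT1 at 28.8 to 46.2 TPM with AZD9496 and 62.3 to 79.7 TPM with DMSO, and TFRC at 96.2 to 150 TPM with AZD9496 and 192 to 233 TPM with DMSO. Of the 14 widely used reference genes, 11 were not called as deposited.

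Beyond the lists, ACKR3, an atypical chemokine receptor, had 171 to 276 TPM with AZD9496 and 62.3 to 106 TPM with DMSO, and rose by 1.48 (SE 0.143). PIP, a secreted protein of luminal and apocrine breast cells, had 85.1 to 138 TPM with AZD9496 and 24.8 to 40.4 TPM with DMSO, and rose by 1.70 (SE 0.203). ABCA4, a retinoid transporter known from the retina, rose by 2.03 with a wide spread, at 13.8 to 42.7 TPM with AZD9496 and 3.88 to 6.54 TPM with DMSO. LHB, the luteinizing hormone beta subunit, stayed low, at 2.62 to 6.38 TPM with AZD9496 and 0.588 to 0.929 TPM with DMSO, and 5 of 9 analyses that left out 1 library lost its call. Several of the largest rises belonged to processed pseudogenes or unnamed clones, whose reads may come from related genes. RPL10P3 averaged 36.2 ± 1.48 TPM with AZD9496 and 8.23 ± 1.04 TPM with DMSO, and HSPB1P1 averaged 44.3 ± 15.3 TPM with AZD9496 and 11.5 ± 3.02 TPM with DMSO. On the lower side, FAIM3, an immunoglobulin M receptor gene, had 12.4 to 17.3 TPM with AZD9496 and 46.5 to 54.6 TPM with DMSO. HAUS1, a subunit of the augmin complex of the spindle, averaged 9.54 ± 3.67 TPM with AZD9496 and 26.9 ± 2.23 TPM with DMSO, and CDCA7, a cell cycle gene of chromatin maintenance, averaged 1.84 ± 0.589 TPM with AZD9496 and 7.06 ± 1.16 TPM with DMSO.

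Luminal identity genes were called higher in 9 of 19 cases as deposited and 4 of 19 after scaling, with none lower. Over all tested genes, 9.31% were higher as deposited and 5.06% after scaling. FOXA1, a pioneer factor at receptor sites named after its values were seen, had 421 to 599 TPM with AZD9496 and 301 to 329 TPM with DMSO and rose in both analyses. GATA3, a luminal transcription factor, had 3980, 1790 and 2930 TPM at 30 nM and 3060, 1540 and 1390 TPM at 300 nM, against 1310, 981 and 1060 TPM in DMSO libraries. The replicate 1 libraries, which list the most genes, held the highest GATA3 level at each dose, and the call was lost after scaling (limma adjusted p = 0.056) and without those 2 libraries (0.161). RPLP2, a ribosomal stalk protein, followed the same order at 4040 TPM in replicate 1 at 30 nM and 2830 TPM in replicate 1 at 300 nM, 1160 to 1840 TPM in the other 4 AZD9496 libraries and 641 to 1190 TPM with DMSO, and was called as deposited but not after scaling (limma adjusted p = 0.0556) or without those 2 libraries (0.168).

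No gene was called between 300 and 30 nM (limma, 0 of 14404 tested genes, 0%), either as deposited or scaled. At an unadjusted p below 0.05 there were 643 genes as deposited and 362 after scaling. For PGR the log2 difference of 300 minus 30 nM was 0.28, for TFF1 -0.10, for MYC -0.12 and for CALR -0.02. A p that misses the threshold does not show that the doses act alike. Against DMSO, 300 nM alone gave 854 calls with 535 higher, and 30 nM alone gave 1623 calls with 1327 higher, while after scaling the counts were 1012 and 1215.

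AZD9496 was also set against the other 5 ligands at the same doses, a comparison without DMSO libraries. As deposited 3298 genes were called (22.9%), with 2735 higher and 563 lower with AZD9496, and after scaling 2911 (20.2%), with 1535 higher and 1376 lower. Without AZD9496 300 nM replicate 2 the deposited count was 2036. Both analyses shared 1535 higher calls (10.7%) and 563 lower calls (3.91%). The median log2 difference of all genes was 0.08 as deposited and -0.01 after scaling. Estrogen-induced genes stood out by their counts, with 29 of 44 higher with AZD9496 in both analyses and 1 lower, CA12, a carbonic anhydrase named after its values were seen, whose call was lost in 3 of the 6 analyses that left out 1 AZD9496 library. Their median was 0.56 as deposited and 0.45 after scaling. Of 50 DNA replication genes 34 were higher in both analyses, and of 21 histone genes 17. Set against DMSO and against the other ligands as deposited, 13 estrogen-induced and 27 replication genes were lower than DMSO and higher than the mean of the other ligands, as were 254 of all 14404 tested genes. These comparisons share the AZD9496 libraries, and the mean hides differences among the other ligands. With GDC-0810, MCM6 averaged 9.86 TPM, MCM7 25.7, PCNA 24.2, HIST1H4B 38.8 and HIST2H2AC 198 TPM, to be read beside the AZD9496 levels above. PGR averaged 7.17 ± 1.23 TPM with AZD9496 and 9.06 ± 0.652 TPM with GDC-0810, GREB1 5.09 ± 1.02 TPM with AZD9496 and 7.07 ± 1.17 TPM with GDC-0810, and EGR3 4.99 ± 0.736 TPM with AZD9496 and 4.94 ± 1.81 TPM with GDC-0810.

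**Figure D4:**
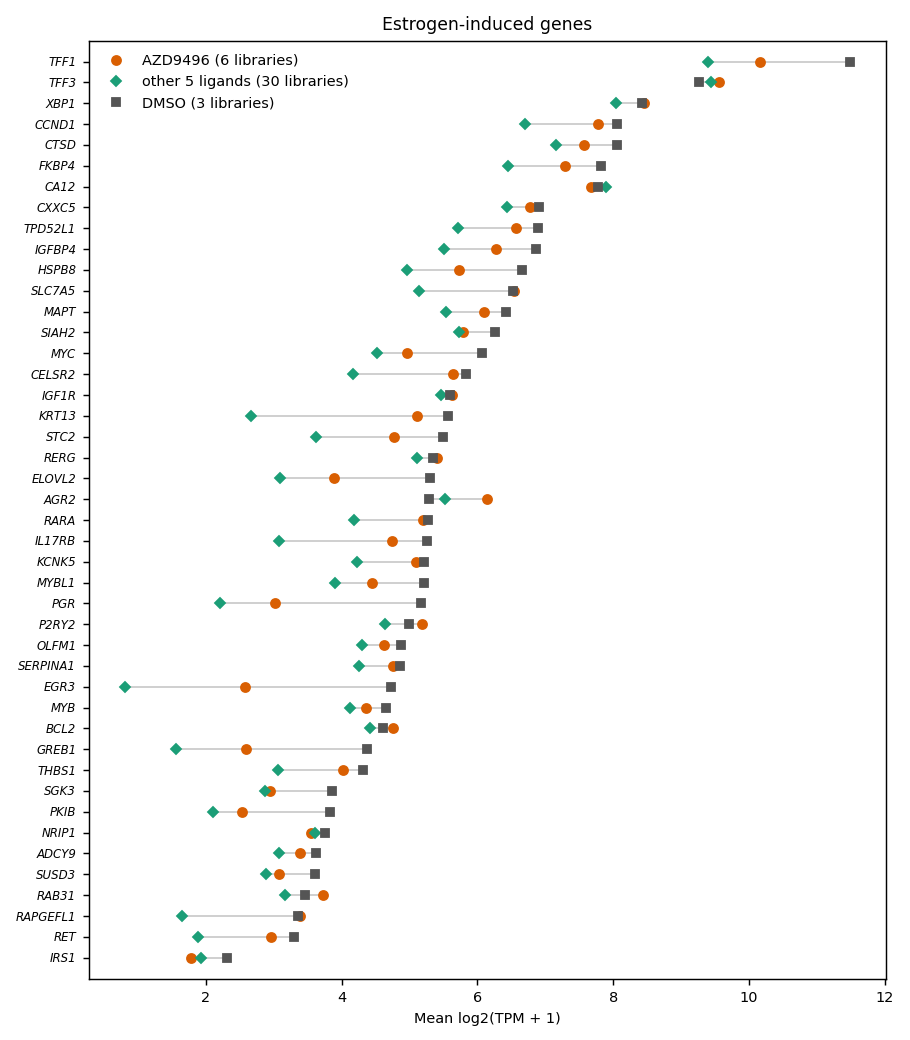
Mean log2(TPM + 1) of the 44 tested estrogen-induced genes in AZD9496 libraries (circles), libraries of the other 5 ligands (diamonds) and DMSO libraries (squares), ordered by the DMSO level. With AZD9496, PGR, EGR3, GREB1, TFF1 and MYC lie between DMSO and the mean of the other 5 ligands, which is not the place of each single ligand, and SLC7A5, RARA and RAPGEFL1 lie at the DMSO level.

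Several estrogen-induced genes were at or somewhat below the DMSO level with AZD9496 and far lower with most other ligands. KRT13, an estrogen-induced keratin, had 27.1 to 45.1 TPM with AZD9496 and 42.7 to 52.0 TPM with DMSO, and was not called against DMSO (-0.47, SE 0.302, limma adjusted p = 0.345). Against the other 5 ligands it was higher by 2.44 (SE 0.191, limma adjusted p = 1.44e-10). The other ligands were not alike, since GDC-0810 libraries had 38.3 to 86.7 TPM and fulvestrant libraries 1.39 to 4.70 TPM. IL17RB, a receptor of interleukin 17 cytokines, had 23.0 to 31.9 TPM with AZD9496, 22.3 to 27.8 TPM with GDC-0810, 5.51 to 7.45 TPM with fulvestrant and 34.5 to 39.7 TPM with DMSO. It fell against DMSO by 0.50 (limma adjusted p = 0.00757, or 0.0648 without DMSO replicate 2) and was higher by 1.67 than the other 5 ligands. SLC7A5 averaged 92.5 ± 8.23 TPM with AZD9496, 75.0 ± 11 TPM with GDC-0810, 29.4 ± 1.26 TPM with fulvestrant and 90.8 ± 6.18 TPM with DMSO. RAPGEFL1, a guanine nucleotide exchange factor, averaged 9.71 ± 2.29 TPM with AZD9496, 7.30 ± 1.01 TPM with GDC-0810, 2.70 ± 1 TPM with fulvestrant and 9.33 ± 1.52 TPM with DMSO. IL17RB, SLC7A5 and RAPGEFL1 were chosen after their values were seen.

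CCND1 was also higher with AZD9496 and GDC-0810 than with fulvestrant. It averaged 217 ± 14.9 TPM with AZD9496, 173 ± 9.6 TPM with GDC-0810, 94.1 ± 12.2 TPM with fulvestrant and 267 ± 39.4 TPM with DMSO. With AZD9496 it was higher by 1.06 than with the other 5 ligands (SE 0.0844, limma adjusted p = 1.87e-10). SERPINA3, a secreted protease inhibitor chosen after its values were seen, had 11.3 to 15.6 TPM with AZD9496, 6.19 to 13.9 TPM with GDC-0810, 2.01 to 4.18 TPM with fulvestrant and 20.4 to 24.9 TPM with DMSO. Its fall against DMSO was not stable, as 7 of 9 analyses that left out 1 library lost the call. CITED1, a transcriptional coactivator, averaged 12.8 ± 2.76 TPM with AZD9496, 14.1 ± 3.26 TPM with GDC-0810, 0.979 ± 0.12 TPM with fulvestrant and 26.3 ± 10.3 TPM with DMSO. The noncoding RNA LINC01016 averaged 9.74 ± 1.86 TPM with AZD9496, 8.93 ± 1.84 TPM with GDC-0810, 1.02 ± 0.669 TPM with fulvestrant and 17.5 ± 2.01 TPM with DMSO. AZD9496 and GDC-0810 were not tested against each other here, so their values stand side by side only.

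**Figure D5:**
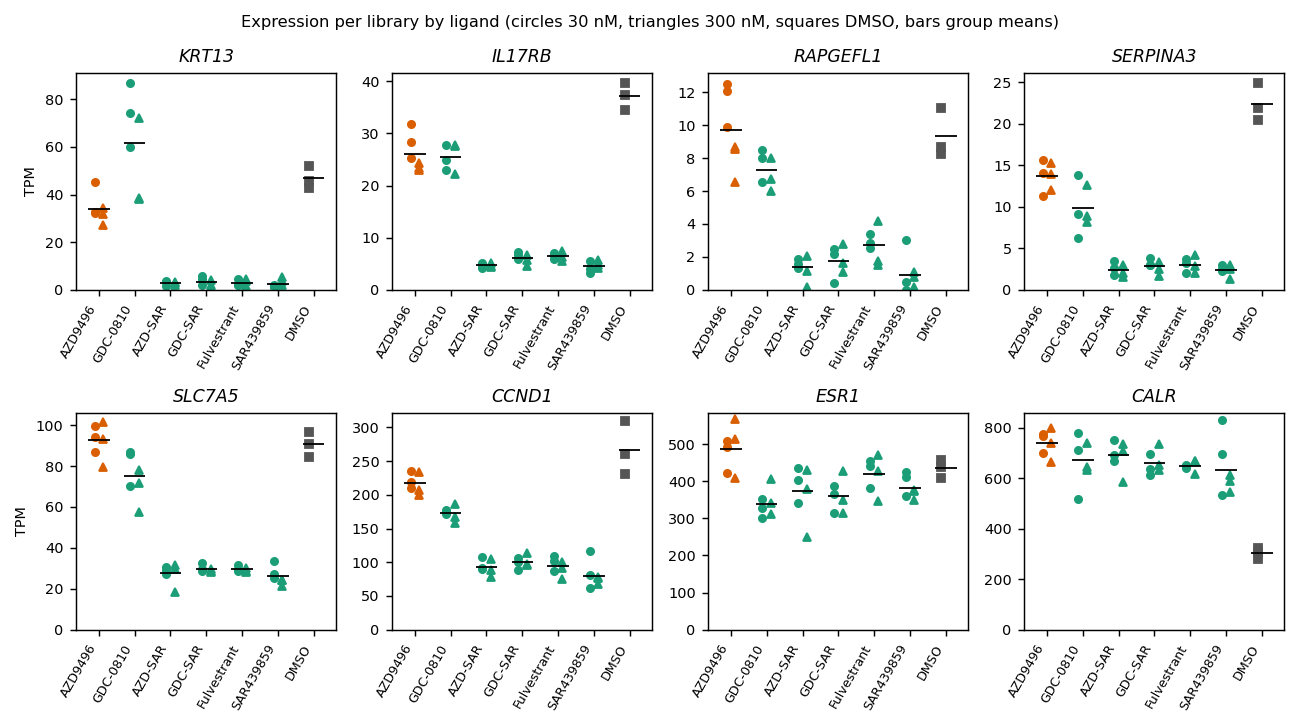
TPM of 8 genes in every library by ligand (circles 30 nM, triangles 300 nM, squares DMSO, horizontal bars group means), on linear axes from 0, with AZD9496 leftmost and DMSO rightmost. KRT13, IL17RB, RAPGEFL1, SERPINA3, SLC7A5 and CCND1 have higher means with AZD9496 and GDC-0810 than with the other 4 ligands, while CALR is above DMSO with all 6 ligands.

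Some genes that rose over DMSO, and ESR1, which was not called against DMSO, were set against the other ligands as well. CALR had 665 to 798 TPM with AZD9496 and 516 to 830 TPM with the other 5 ligands, and the difference was not called (0.17, SE 0.0725, limma adjusted p = 0.0934). ESR1 RNA was higher with AZD9496 than with the other ligands by 0.38 (SE 0.0869, limma adjusted p = 0.00233, scaled 0.0197), at 410 to 568 TPM with AZD9496 and 250 to 471 TPM with the others. TP53INP1, BLNK and CCNG2 were lower with AZD9496 than with the mean of the other 5 ligands, by log2 differences of -0.33, -0.70 and -0.34. The other ligands were again not alike. TP53INP1 had 58.4 to 70.4 TPM with AZD9496, 42.2 to 54.8 TPM with GDC-0810 and 89.5 to 110 TPM with fulvestrant. BLNK averaged 22.5 ± 2.98 TPM with AZD9496, 23.6 ± 2.84 TPM with GDC-0810 and 39.7 ± 4.82 TPM with fulvestrant, and CCNG2 averaged 21.4 ± 2.78 TPM with AZD9496, 19 ± 3.64 TPM with GDC-0810 and 31.1 ± 2.66 TPM with fulvestrant. CYP1A1 was lower than the mean of the other ligands by a log2 difference of -0.76, at 2.17 to 5.02 TPM with AZD9496, 1.75 to 4.58 TPM with GDC-0810 and 6.12 to 9.57 TPM with fulvestrant. Some of the largest differences from the other ligands rested on few libraries. RP11-302K17.4 had 154 TPM in 1 AZD9496 library at 30 nM and 106 TPM in 1 at 300 nM and was listed at 0 in every other library. RPL35AP4, a processed pseudogene, was above 0 in 2 AZD9496 libraries, at 52.6 and 103 TPM. It was not confined to AZD9496, since it reached 70.3 TPM among the SAR439859 libraries (mean 11.7 TPM). Without the 30 nM library that held the higher value, their calls were lost, at limma adjusted p = 0.138 for RP11-302K17.4 and 0.166 for RPL35AP4.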

How the data were processed

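RNA libraries were stranded, and reads were aligned with STAR to GRCh38, per the submitters' processing notes. The authors deposited TPM per gene symbol for 39 libraries, which were used as deposited. Neither counting tool nor annotation is given in the sources used here. TPM columns carry no counts, so depth is unknown and precision rests on the libraries alone. Groups were taken from the labels (13 groups of 3). limma 3.58.1 (R 4.3.3) was fitted to log2(TPM + 1), with a mean per group, an intensity trend and 26 residual degrees of freedom, over 14404 genes with a mean of 1 TPM or more. The AZD9496 doses were averaged, p-values were Benjamini-Hochberg adjusted over all tested genes, and the fit was repeated after median-of-ratios scaling. The script was tested on simulated data. Members and the 26 gene lists were chosen with earlier results of these data known.

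Named genes were a fixed set of 9, the largest differences among called genes of at least 5 TPM (without overlap for DMSO, 15 each way; 8 each way for the other ligands) and 4 members per list. The text stops early in that order. Genes outside it are marked where named, and some counted genes are not reported here by name. Positions and gene types are from GENCODE version 29, which matched 11870 tested symbols (82.4%). Promoters are from RefSeq (GRCh38.p14), matched by symbol for 9094 tested genes.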

Additional observations from a re-analysis of the deposited data

Results flagged for a closer look

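Over the 6 AZD9496 libraries, 117 named genes were checked for a single library set apart from the rest (Dixon's test), and 7 were found. Chance gives about 1 in 20, so this count is near chance, and the genes are listed as description only. AZD9496 300 nM replicate 3 stood apart for 4 of them. EDEM1 had 14.4 TPM there and 18.7 to 20.1 TPM in the other AZD9496 libraries. MYBL1, an estrogen-induced transcription factor chosen after its values were seen, had 14.6 TPM there and 21.2 to 23.9 TPM elsewhere. TFRC, the transferrin receptor, had 96.2 TPM there and 127 to 150 TPM elsewhere. HOOK1, a microtubule adaptor, had 34.6 TPM there and 12.8 to 17.3 TPM elsewhere, against 35.2 to 71.3 TPM in DMSO libraries.

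In AZD9496 300 nM replicate 2, CYP51A1, a sterol demethylase, had 61.3 TPM against 48.9 to 52.0 TPM in the other AZD9496 libraries, and MAD2L1, a spindle checkpoint protein, had 24.7 TPM against 14.1 to 17.2 TPM. In AZD9496 30 nM replicate 1, QARS, glutaminyl-tRNA synthetase, had 315 TPM against 159 to 206 TPM in the others.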

How the results depend on the processing

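No paired analysis was possible because the labels give no replicate numbers, and those used here only follow accession order. ESR1, PGR, GREB1, TFF1 and CALR kept their side of the threshold under every alternative in which they were tested. PGR and GREB1 were not in the fit restricted to a mean of at least 10 TPM. The 1791 calls against DMSO became 854 with 300 nM alone and 878 to 1776 with 1 library left out, at 1185, 878 and 1021 without DMSO replicates 1, 2 and 3. The 3298 calls against the other ligands ranged over 2036 to 3068 with 1 AZD9496 library left out, lowest without AZD9496 300 nM replicate 2. Between doses, 7 genes were called with no expression filter and 0 to 1 with 1 library left out, the 1 arising without replicate 2 at either dose. The cause was not tested. Higher and lower calls against DMSO were 844 and 822 with upper-quartile scaling and 797 and 845 with quantile normalization. No named gene reversed as a call in any alternative. Alternatives added after the data were seen rescaled TPM to protein-coding genes, left out the SAR439859 30 nM libraries (one lists MALAT1 at 0) and left out the AZD9496 library with most genes at each dose. Unknown depth, 3 DMSO libraries and possible pool differences limit every comparison with DMSO.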

Other observations

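Further genes chosen by size of difference showed uneven spread. EVI5L, a GTPase regulator gene, had 6.22 to 25.6 TPM with AZD9496 and 1.65 to 5.08 TPM with DMSO, and its call (limma adjusted p = 0.0271) was lost in 4 of 9 analyses that left out 1 library. SHROOM1, an actin-associated gene, had 0.982 to 3.24 TPM with AZD9496 and 4.31 to 11.2 TPM with DMSO, and its call was lost without DMSO replicate 3 (limma adjusted p = 0.102). RTN2, a reticulon, had 108 to 249 TPM with AZD9496 and 44.9 to 84.6 TPM with DMSO, and rose by 1.51. NDUFB8, a subunit of respiratory complex I, had 189 to 417 TPM with AZD9496 and 113 to 196 TPM with DMSO, so its groups overlapped although it rose by 1.01 (limma adjusted p = 0.0025). RMRP, the RNA of a mitochondrial and nucleolar ribonuclease, had 21900 to 38500 TPM with AZD9496 and 45500 to 64200 TPM with DMSO, and fell by 0.87, a call lost without DMSO replicate 1 (limma adjusted p = 0.0992) and under quantile normalization (-0.45, adjusted p = 0.357).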
